A study of Homo sapiens with 3 samples.

Results

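The 10 genes described here are transcriptional outputs and feedback inhibitors of the RAS-ERK pathway, namely DUSP4, DUSP5, DUSP6, SPRY2, SPRY4, SPRED1, ETV4, ETV5, EGR1 and FOSL1. They were chosen by symbol from a list of names and make up 10 of the 16149 genes listed in at least 1 of the 3 libraries, and all 10 were listed in every library with a mean above 5 RPKM. Messenger RNA was sequenced from 3 cultured lines of human hepatocellular carcinoma (HCC) with 1 library each. All of them carry the cell line label HCCLM3, a human HCC line grown in DMEM medium, and no treatment is given. The parent is labelled as low in metastatic ability, while its 2 derivatives, here subclone 1 and subclone 2, are labelled as directed to the lung and to both lung and celiac lymph node, respectively. The study's methods describe the parent as HCCLM3-R, a derivative expressing red fluorescent protein, with high metastatic potential, and its subclones as lines grown from single cells of metastases in nude mice. Thus each subclone stands for 1 clone, and the sources used here do not say which clones were sequenced, nor the cell density or the time since the last change of medium at harvest.

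The ERK pathway carries signals from growth factor receptors through RAS, RAF and MEK kinases to the ERK kinases, which enter the nucleus and switch on transcription. Among the genes switched on are transcription factors that carry the response further and inhibitors that turn the pathway down again, so the mRNA levels of these genes are often read as a footprint of recent ERK activity. In HCC the pathway is commonly active downstream of receptors such as MET and EGFR.

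Levels are given as RPKM, read numbers corrected for gene length and library size, as the authors deposited them. The RPKM of a gene stood in ratios of whole numbers between libraries, from which totals of 4488825, 4609696 and 4725150 reads were obtained for the parent, subclone 1 and subclone 2. The 95% intervals behind each value are exact Poisson intervals on the reads, and those of folds between libraries are exact binomial intervals. They cover counting error only, since no line had a replicate library, and no difference between cell lines could be tested. Log2 ratios were taken after adding 0.1 RPKM, which understates the change of genes at low levels. Of 4 epithelial markers, the keratins KRT8 (1614 to 1742 RPKM) and KRT18 (953 to 1075 RPKM) were abundant in all libraries, CDH1 was at 2.08, 8.97 and 12.3 RPKM in the parent, subclone 1 and subclone 2, and EPCAM stayed at or below 0.367 RPKM. Of the hepatocyte markers only ALB, AFP, APOB and HNF4A reached 1 RPKM in any library. ALB was 2.46 RPKM in the parent, 49.5 RPKM in subclone 1 and 68.8 RPKM in subclone 2. The summed level of 6 fibroblast markers, mostly LUM, was 11.3, 28.9 and 23.9 RPKM in the same order, with PDGFRB at 0 and COL1A1 no higher than 0.403 RPKM. Leukocyte and endothelial markers other than CD68, LYZ and PECAM1 stayed below 0.1 RPKM. PECAM1 was 3.33, 9.81 and 4.46 RPKM, and CD68 75.3, 112 and 99.6 RPKM. The part of these differences in the results that follow was not tested.

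Most of these 10 genes were lower in the subclones than in the parent, and the differences were moderate. A lower median was not seen in 2 lists of other ERK outputs and inhibitors, which were chosen with results known. The other ERK outputs, described below, had median log2 ratios of 0.039 in subclone 1 and 0.28 in subclone 2. The other inhibitors of RAS and ERK had medians of 0.012 and 0.17. In subclone 1 these 2 medians became -0.093 and -0.12 on division by ACTB, and -0.015 and -0.041 on division by GAPDH. The median of the 10 genes was then -0.63 and -0.55, respectively. In subclone 1, the 95% interval of the fold over the parent lay below 1 for 7 of the 10 genes (DUSP4, DUSP5, SPRY2, SPRY4, ETV4, EGR1 and FOSL1) and above 1 for DUSP6. The same held for 19.0% (below 1) and 20.0% (above 1) of the 11103 genes with a mean of at least 1 RPKM and whole reads. In subclone 2 the interval was below 1 for 5 genes (DUSP4, DUSP5, SPRY4, EGR1 and FOSL1) and above 1 for DUSP6 and ETV5, against 17.8% and 22.9% of all such genes. None of the 10 was 2-fold lower or higher in any comparison. Among all 11370 genes with a mean of at least 1 RPKM, 1.82% were 2-fold lower and 4.90% 2-fold higher in subclone 1 relative to the parent, and 2.16% and 5.33% in subclone 2. At 1.5-fold, 4 genes were lower in subclone 1 (SPRY2, SPRY4, ETV4 and FOSL1), against 7.46% of all genes. Only EGR1 and FOSL1 of the 10 were 1.5-fold lower in subclone 2, against 7.30% of all genes. None was 1.5-fold higher than in the parent, where 11.6% and 12.7% of all genes were. Narrow intervals come more easily to abundant genes. Among genes with a mean of at least 5 RPKM, a limit that each of the 10 passes, the interval was below 1 for 22.8% in subclone 1 and 21.1% in subclone 2, and 5.91% and 5.31% were 1.5-fold lower.

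Relative to the parent, the 10 genes had a median log2 ratio of -0.50 in subclone 1, beside 0.0043 for all genes. For subclone 2 it was -0.34, beside 0.037 for all genes. Both comparisons share the 1 parental library, so that a high parental value would lower both ratios of a gene. The RPKM of the 10 genes summed to 274.9, 230.9 and 234.2 in the parental library and those of subclones 1 and 2.

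**Figure D1:**
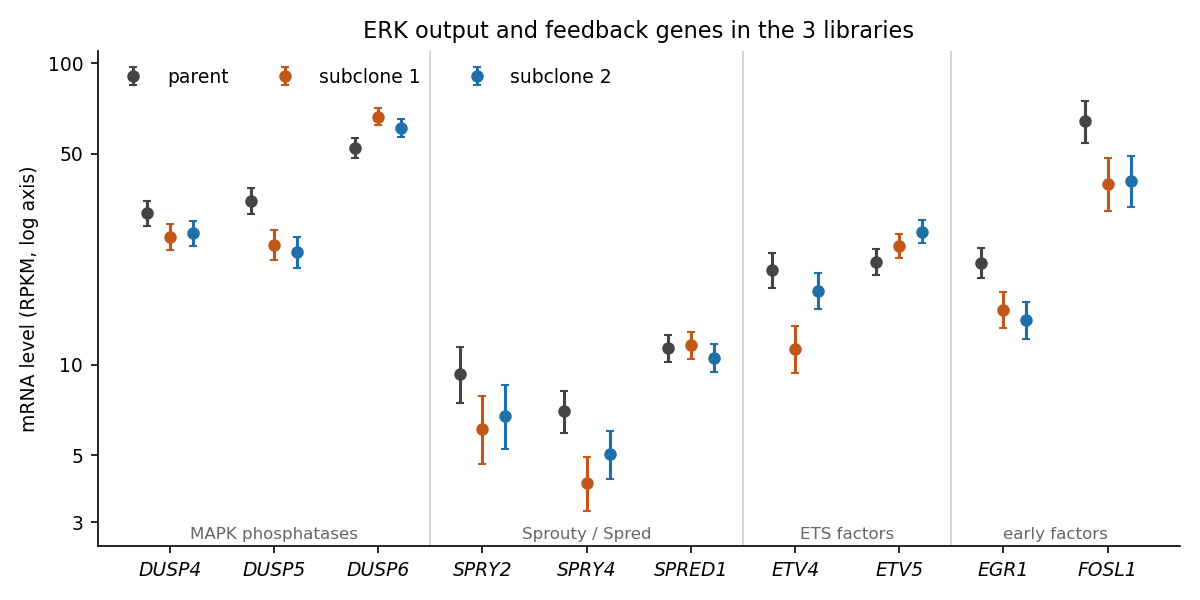
mRNA level of each gene in RPKM (log axis) in the parent, subclone 1 and subclone 2, 1 library each, grouped by role. Bars are exact 95% Poisson intervals on the reads. The parent is the highest of the 3 libraries for DUSP4, DUSP5, SPRY2, SPRY4, ETV4, EGR1 and FOSL1 and the lowest for DUSP6 and ETV5.

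**Figure D2:**
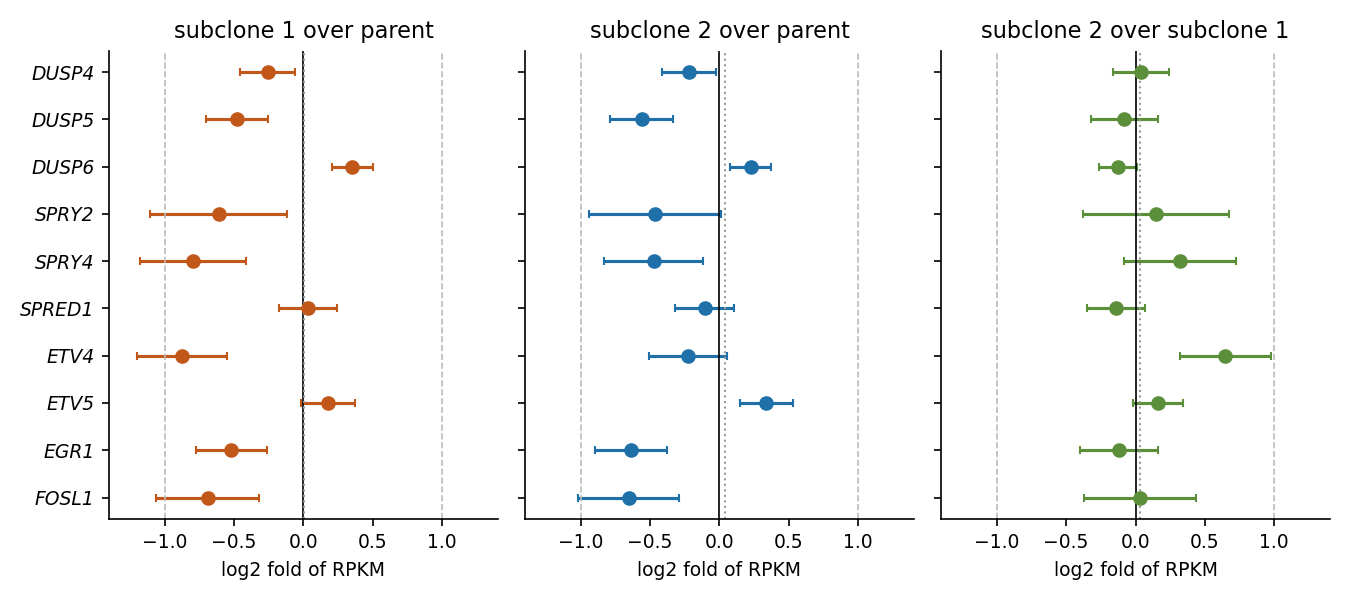
Log2 fold of RPKM for each gene in the 3 comparisons, without pseudocount. Bars are exact 95% binomial intervals on the reads, dashed lines mark 2-fold and the dotted line the median log2 ratio of all genes. Most points lie left of 0 against the parent, with DUSP6 on the right in both panels, and between the subclones only ETV4 has an interval that excludes 0.

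The promoter windows of these genes, from 250 bases before the transcript start to 50 bases after it, were taken from RefSeq on GRCh38.p14 for the 5 members found in its table (DUSP6, SPRY2, SPRY4, SPRED1 and EGR1), with 3 windows for SPRY2. The sequences are shown for EGR1 and SPRY4, whose mRNA was lower in both subclones, and for DUSP6, whose mRNA was higher. EGR1 lies at chr5:138465229-138465528 on the plus strand, SPRY4 at chr5:142324198-142324497 and DUSP6 at chr12:89352452-89352751, both on the minus strand. Capitals mark CArG boxes, which bind serum response factor, and matches of GCGNGGGCG, a motif of EGR proteins, on either strand.
EGR1: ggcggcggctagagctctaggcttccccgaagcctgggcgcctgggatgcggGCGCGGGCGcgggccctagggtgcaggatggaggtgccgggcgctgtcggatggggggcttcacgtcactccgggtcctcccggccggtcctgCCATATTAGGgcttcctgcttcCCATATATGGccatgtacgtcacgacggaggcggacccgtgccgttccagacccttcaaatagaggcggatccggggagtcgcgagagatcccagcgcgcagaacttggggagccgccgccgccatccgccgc
SPRY4: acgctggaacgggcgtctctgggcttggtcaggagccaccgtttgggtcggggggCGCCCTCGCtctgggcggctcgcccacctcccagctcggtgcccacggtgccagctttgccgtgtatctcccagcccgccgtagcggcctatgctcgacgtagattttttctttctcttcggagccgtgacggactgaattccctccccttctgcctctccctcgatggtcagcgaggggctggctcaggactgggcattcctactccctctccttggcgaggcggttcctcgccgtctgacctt
DUSP6: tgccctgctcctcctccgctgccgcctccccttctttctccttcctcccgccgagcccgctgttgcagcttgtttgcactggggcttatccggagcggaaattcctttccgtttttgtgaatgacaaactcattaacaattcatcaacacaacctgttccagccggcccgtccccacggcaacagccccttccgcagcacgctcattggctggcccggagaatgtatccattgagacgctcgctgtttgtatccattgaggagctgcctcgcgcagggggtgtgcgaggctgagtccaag
The EGR1 window holds 2 CArG boxes, CCATATTAGG and CCATATATGG, which start 105 and 83 bases before the transcript start. Of 35116 promoter windows of this length, 1.29% hold such a box. Matches of GCGNGGGCG stand 198 bases before the start of EGR1 and, on the opposite strand, 195 bases before that of SPRY4, and 1 window of SPRY2 holds 2 of them. This motif was found in 9.43% of all windows. None of the members' windows held TGANTCA (AP-1), TGACGTCA (CRE) or CCGGAAG (ETS), which occur in 7.71%, 1.85% and 10.3% of all windows on either strand. The motifs found in these windows do not overlap each other. A match is a run of letters and was not measured as a binding site in these cells.

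DUSP4, DUSP5 and DUSP6 encode dual-specificity phosphatases that remove the activating phosphates from MAP kinases. DUSP4 and DUSP5 act in the nucleus, where DUSP5 is selective for ERK, and DUSP6 is the ERK-selective phosphatase of the cytoplasm. DUSP6 (Entrez gene 1848) was the most abundant of them, at 52.2 RPKM in the parent (48.3 to 56.3, 666 reads), 66.6 in subclone 1 (62.2 to 71.1, 872 reads) and 60.99 in subclone 2 (56.9 to 65.3, 819 reads). Its fold over the parent was therefore 1.27 in subclone 1 (1.151 to 1.41) and 1.17 in subclone 2 (1.05 to 1.30). The intervals of both subclones lay above that of the parent. These folds stood at percentiles 78.7 and 67.6 among the log2 ratios of all genes. DUSP5 (Entrez gene 1847) had 34.8 RPKM in the parent (31.5 to 38.4, 398 reads), 25.0 in subclone 1 (22.2 to 28.0, 293 reads) and 23.6 in subclone 2 (20.9 to 26.5, 284 reads). In the subclones it stood at 0.717 (0.614 to 0.836) and 0.678 (0.580 to 0.791) of the parental level, at percentiles 10.8 and 7.96. DUSP4 (Entrez gene 1846) had lower levels in both subclones by a smaller margin, with 31.8 RPKM in the parent (28.9 to 34.8, 459 reads), 26.5 in subclone 1 (24.0 to 29.3, 394 reads) and 27.3 in subclone 2 (24.7 to 30.0, 415 reads). Its folds of 0.836 (0.729 to 0.958) and 0.859 (0.7503 to 0.983) had intervals that ended close to 1.

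DUSP6 thus stood further above DUSP4 and DUSP5 in the subclones, which a ratio between genes of the same library shows whatever the scaling of the libraries. DUSP6 exceeded DUSP5 by 1.498-fold in the parent (1.32 to 1.70), by 2.67-fold in subclone 1 (2.33 to 3.05) and by 2.58-fold in subclone 2 (2.25 to 2.97). This ratio was 1.78 times that of the parent in subclone 1 (exact conditional 95% interval 1.48 to 2.14) and 1.72 times in subclone 2 (1.43 to 2.08). The ratio of DUSP6 to DUSP4 was 1.64 for the parent and 2.51 and 2.24 for subclones 1 and 2, hence 1.53 times (1.28 to 1.81) and 1.36 times (1.146 to 1.61) that of the parent. Between the subclones neither ratio differed beyond counting error.

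SPRY2, SPRY4 and SPRED1 belong to the Sprouty and Spred family, membrane-associated inhibitors that are induced by ERK signalling and act on RAS and RAF upstream of it. SPRED1 does so by recruiting the RAS inhibitor neurofibromin. SPRY4 and SPRY2 were the least abundant members in each library. SPRY4 (Entrez gene 81848) had 7.01 RPKM in the parent (5.95 to 8.19, 157 reads), 4.04 in subclone 1 (3.26 to 4.95, 93 reads) and 5.04 in subclone 2 (4.18 to 6.04, 119 reads). That is 0.577 of the parent in subclone 1 (0.441 to 0.7502), at percentile 3.83, and 0.720 in subclone 2 (0.563 to 0.920), at percentile 10.9. SPRY2 (Entrez gene 10253) had 9.33 RPKM in the parent (7.49 to 11.5, 89 reads), 6.12 in subclone 1 (4.67 to 7.88, 60 reads) and 6.77 in subclone 2 (5.26 to 8.58, 68 reads). Its fold was 0.656 in subclone 1 (0.465 to 0.921) and 0.726 in subclone 2, where the interval from 0.521 to 1.01 does not show a difference at this depth. SPRED1 (Entrez gene 161742) stayed close to the parent, at 11.3 RPKM in the parent (10.2 to 12.5, 369 reads), 11.6 in subclone 1 (10.5 to 12.8, 388 reads) and 10.5 in subclone 2 (9.47 to 11.7, 361 reads). The intervals of its folds, 0.886 to 1.18 and 0.802 to 1.08, contain no fold as large as 1.5 in either direction.

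SPRED1 and the Sprouty genes thereby stood further apart in subclone 1. SPRED1 exceeded SPRY4 by 1.62-fold in the parent (1.34 to 1.96), by 2.87-fold in subclone 1 (2.28 to 3.64) and by 2.09-fold in subclone 2 (1.69 to 2.59). The ratio in subclone 1 was 1.78 times that of the parent (1.31 to 2.41), while that in subclone 2, 1.29 times the parent, had an interval from 0.967 to 1.72. The ratio in subclone 2 was 0.727 times that in subclone 1, with an interval that ended close to 1 (0.528 to 0.9995). SPRY2 and SPRY4 had a ratio between 1.33 and 1.515 in the 3 libraries, and its changes over the parent had intervals of 0.734 to 1.76 and 0.665 to 1.53.

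ETV4 and ETV5 are closely related ETS transcription factors of the PEA3 group, which are induced by ERK signalling downstream of receptor tyrosine kinases. ETV4 had lower and ETV5 higher values in the subclones, with intervals that exclude 1 for ETV4 in subclone 1 and for ETV5 in subclone 2. ETV4 (Entrez gene 2118) had 20.6 RPKM in the parent (18.0 to 23.5, 225 reads), 11.2 in subclone 1 (9.37 to 13.4, 126 reads) and 17.6 in subclone 2 (15.2 to 20.2, 202 reads). Its level in subclone 1 was 0.545 of the parent (0.435 to 0.681), the lowest fold of the 10 genes, at percentile 2.92. In subclone 2 the fold was 0.853 with an interval from 0.702 to 1.04. ETV5 (Entrez gene 2119) had 21.9 RPKM in the parent (19.8 to 24.1, 403 reads), 24.8 in subclone 1 (22.6 to 27.1, 468 reads) and 27.7 in subclone 2 (25.4 to 30.1, 536 reads). Its fold over the parent was 1.26 in subclone 2 (1.11 to 1.44) and 1.13 in subclone 1, with an interval from 0.988 to 1.30. Both factors were at nearly the same level in the parent, where ETV5 was 1.06 times ETV4 (0.899 to 1.26). In subclone 1 this ratio was 2.20 (1.80 to 2.70) and in subclone 2 it was 1.57 (1.34 to 1.86). The ratio was 2.07 times that of the parent in subclone 1 (1.59 to 2.70) and 1.48 times in subclone 2 (1.17 to 1.88). Of 8 pairs of members compared in this way, 5 had a ratio that differed from the parent beyond counting error in subclone 1, 4 in subclone 2, and 2 differed between the subclones. Several pairs share a gene, and the share among pairs of other genes was not computed. These counts are therefore no result about the group.

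**Figure D3:**
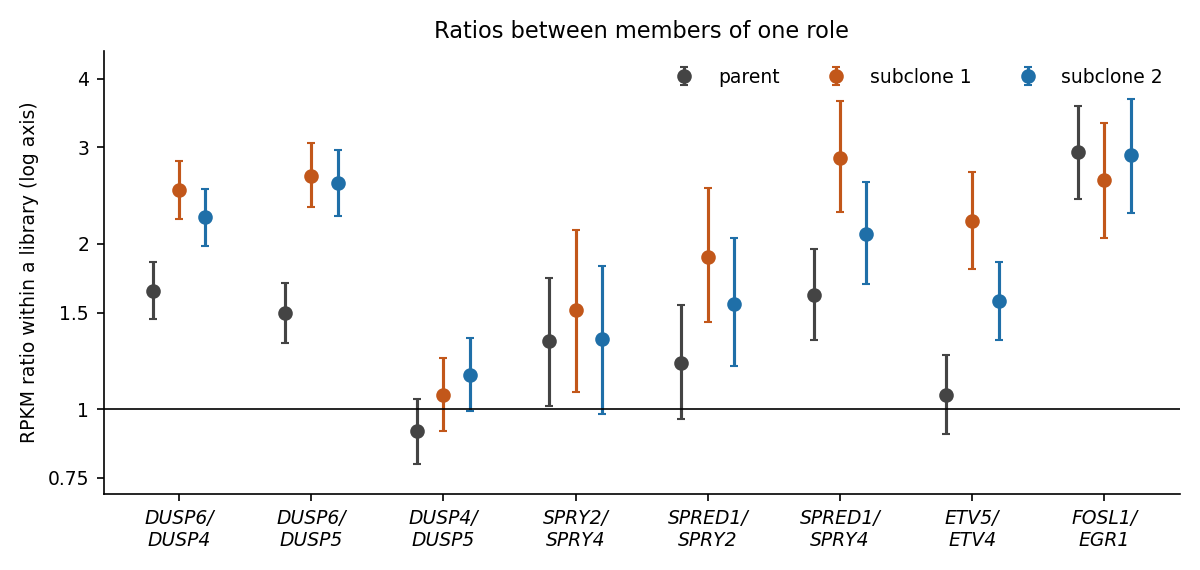
RPKM of one member over another in the same library (log axis) for 8 pairs of members with a shared role. Bars are exact 95% binomial intervals on the reads, and the line marks equal levels. The ratios of DUSP6 to DUSP4 and to DUSP5 and that of ETV5 to ETV4 are higher in both subclones than in the parent, and FOSL1 to EGR1 lies between 2.62 and 2.94 in the 3 libraries.

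EGR1 is a zinc finger transcription factor of the immediate-early class, induced rapidly and transiently by growth factors. FOSL1 encodes FRA-1, a partner in the AP-1 transcription factor whose gene and protein are sustained by ERK activity in many carcinomas. EGR1 (Entrez gene 1958) had 21.8 RPKM in the parent (19.4 to 24.4, 307 reads), 15.2 in subclone 1 (13.3 to 17.4, 220 reads) and 14.0 in subclone 2 (12.2 to 16.1, 208 reads). FOSL1 (Entrez gene 8061) had 64.1 RPKM in the parent (54.6 to 74.8, 160 reads), 39.8 in subclone 1 (32.4 to 48.3, 102 reads) and 40.7 in subclone 2 (33.4 to 49.2, 107 reads). For both genes the parental interval lay above those of the subclones. EGR1 was at 0.698 of the parent in subclone 1 (0.584 to 0.832) and at 0.644 in subclone 2 (0.537 to 0.770), which are percentiles 9.52 and 6.21. FOSL1 was at 0.621 (0.479 to 0.801) and 0.635 (0.493 to 0.817), at percentiles 5.30 and 5.72. The reads of FOSL1 are the smallest whole numbers that its RPKM allow, and whole multiples of them would narrow its intervals. They imply a length of 556 bases, where the nearest GENCODE transcript has 584 and the longest 1669. At 3 times these reads the length would be 1668, with the same RPKM and folds. Its level beside other genes rests on the length that the authors used for its RPKM. FOSL1 exceeded EGR1 by 2.94-fold in the parent, 2.62-fold in subclone 1 and 2.901-fold in subclone 2, and the change of this ratio over the parent had intervals of 0.649 to 1.22 and 0.721 to 1.35.

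The order of the levels differed at the top. FOSL1 was the most abundant of the 10 genes in the parent, 1.23-fold above DUSP6 (1.03 to 1.46). DUSP6 was 1.67-fold above FOSL1 in subclone 1 (1.36 to 2.07) and 1.497-fold in subclone 2 (1.22 to 1.85). SPRY4 was the least abundant in each library, below SPRY2. In the parent the levels ran from FOSL1 over DUSP6, DUSP5, DUSP4, ETV5, EGR1, ETV4, SPRED1 and SPRY2 to SPRY4. Of its 9 neighbouring pairs, 4 did not differ beyond counting error (DUSP5 and DUSP4, ETV5 and EGR1, EGR1 and ETV4, SPRED1 and SPRY2). The levels spanned 9.15-fold in the parent, 16.5-fold in subclone 1 and 12.1-fold in subclone 2. Subclone 1 had the order DUSP6, FOSL1, DUSP4, DUSP5, ETV5, EGR1, SPRED1, ETV4, SPRY2 and SPRY4, in which DUSP4 and DUSP5, DUSP5 and ETV5, and SPRED1 and ETV4 were not separated. Subclone 2 had the order DUSP6, FOSL1, ETV5, DUSP4, DUSP5, ETV4, EGR1, SPRED1, SPRY2 and SPRY4. There ETV5 and DUSP4, DUSP4 and DUSP5, and SPRY2 and SPRY4 were not separated. The median of the 10 levels was 21.8, 19.98 and 20.6 RPKM in the parent, subclone 1 and subclone 2, against 10.8, 10.9 and 11.2 RPKM for all genes with a mean of at least 1 RPKM.

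Subclones 1 and 2 resembled each other in these genes, apart from ETV4. Its level in subclone 2 was 1.56 times that in subclone 1 (1.25 to 1.97), a log2 ratio of 0.64 that reached percentile 96.0. It was the 1 gene of the 10 with an interval above 1, against 11.6% of all genes, and none had an interval below 1, against 8.43%. A share of 1 in 10 is close to the background, so the count is no result about the group. The background at 2-fold was 1.42% higher and 1.39% lower, and at 1.5-fold, where ETV4 was again the 1 member higher, it was 4.75% higher and 4.11% lower. SPRY4 was 1.25-fold higher in subclone 2 with an interval from 0.944 to 1.66. The other 8 genes had folds from 0.908 for SPRED1 to 1.12 for ETV5. The median log2 ratio of the 10 genes between the subclones was 0.036, beside 0.034 for all genes.

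**Figure D4:**
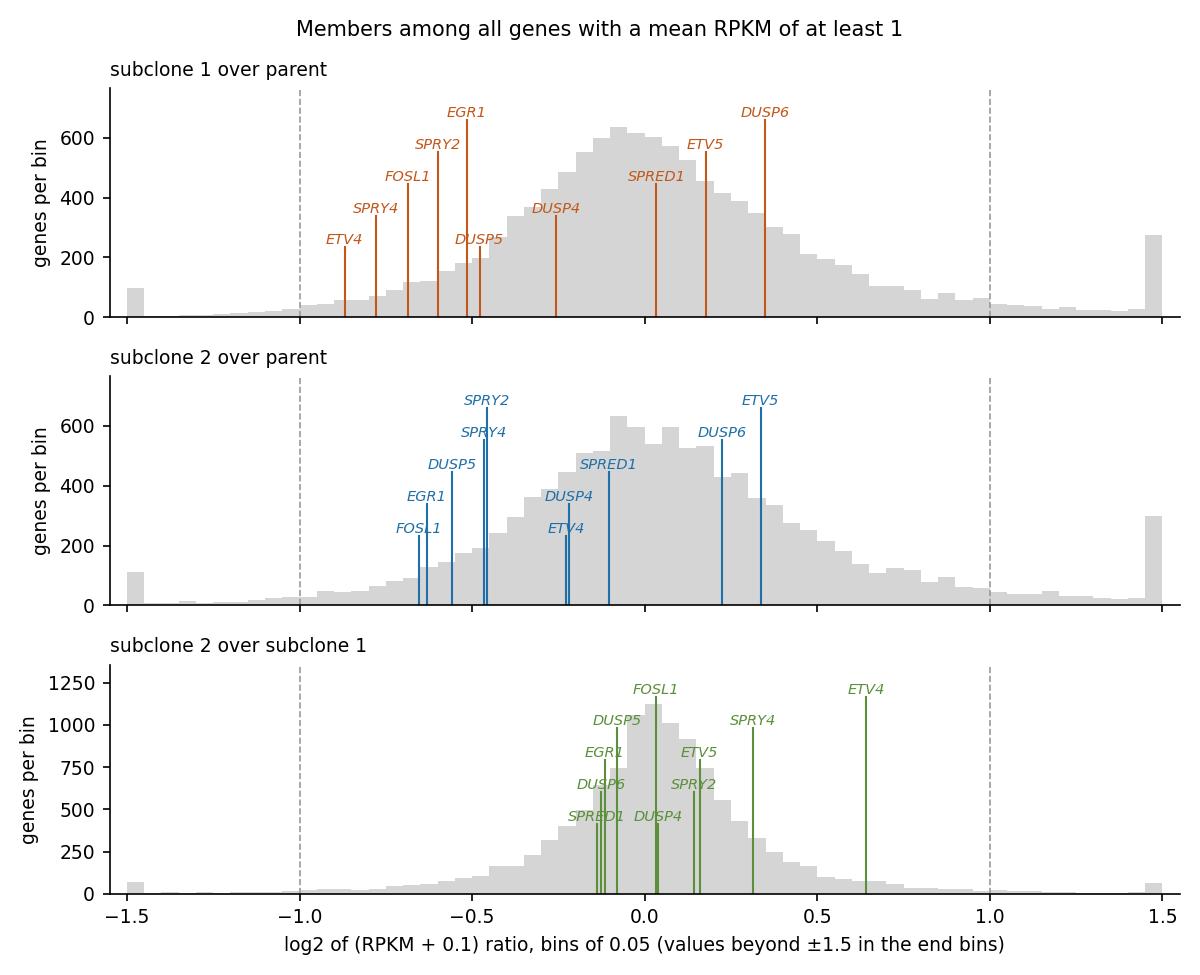
Histogram of the log2 ratio of RPKM plus 0.1 for the 11370 genes with a mean of at least 1 RPKM, in bins of 0.05 and with values beyond 1.5 in the end bins, with the 10 members as labelled lines. Dashed lines mark 2-fold. Against the parent the members reach from -0.87 (ETV4) to 0.35 (DUSP6) in subclone 1 and from -0.65 (FOSL1) to 0.34 (ETV5) in subclone 2, and between the subclones ETV4 stands at 0.64.

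The genes whose pair of log2 ratios over the parent was nearest to that of ETV4, the member with the largest change, were TRMT61B, MYD88, ASNS, PCBP4 and PRPF39, at Euclidean distances from 0.051 to 0.087 on the log2 scale. They were the nearest of 8201 other genes with a mean of at least 5 RPKM, and the likeness rests on 3 libraries. ASNS, for example, had 35.5, 18.6 and 30.4 RPKM in the parent, subclone 1 and subclone 2.

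The wider pathway was described with 8 further lists of 92 genes, of which 75 had a mean of at least 1 RPKM. These lists were chosen with results known and their counts carry no test. Among close relatives of the members (other DUSP, SPRY and SPRED genes and ETV1), the 10 measured had a median log2 ratio of 0.28 in subclone 1 and 0.39 in subclone 2. Intervals above 1 were found for 2 of them in each subclone, and intervals below 1 for 1 in subclone 1 and 2 in subclone 2. Of all genes, 20.0% and 22.9% had an interval above 1, and 19.0% and 17.8% one below 1. The counts are close to these shares and are no result about the relatives. DUSP7, an ERK phosphatase related to DUSP6, had an interval below 1 in both subclones, at 8.44, 4.88 and 5.67 RPKM in the parent, subclone 1 and subclone 2. DUSP1, an immediate-early phosphatase of several MAP kinases, had 8.85, 14.8 and 11.6 RPKM, with a fold of 1.67 in subclone 1 (1.26 to 2.23) and 1.31 in subclone 2 (0.978 to 1.77). DUSP2, with a mean below 1 RPKM, had 1.30, 0.254 and 0.496 RPKM from 5, 1 and 2 reads, and the intervals of both folds include 1. Among the 10 measured, DUSP8 and DUSP9, phosphatases at low levels, were the relatives past 2-fold in a subclone. DUSP8 had 0.744, 1.401 and 1.93 RPKM, and DUSP9 0.651, 1.63 and 1.33 RPKM in the 3 libraries, and both folds of DUSP9, from 7 reads in the parent, had intervals that include 1.

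Several other immediate-early and AP-1 genes were higher in the subclones, unlike EGR1 and FOSL1. The median log2 ratio of the 8 measured was 0.32 in subclone 1 and 0.35 in subclone 2. Of 7 with whole reads, 4 had an interval above 1 in subclone 1 (FOS, FOSL2, JUNB and JUND) and 3 in subclone 2 (FOS, JUNB and JUND), and none had one below 1. Of all genes, 20.0% and 22.9% had an interval above 1, and 19.0% and 17.8% one below 1. JUNB, an AP-1 partner of FOS proteins, had 31.0, 57.1 and 48.3 RPKM in the 3 libraries, or 1.84 times (1.58 to 2.15) and 1.56 times (1.33 to 1.83) the parental level. FOS was at 7.74, 12.9 and 13.1 RPKM, with folds of 1.66 (1.24 to 2.24) and 1.70 (1.27 to 2.28). JUN lay at 31.4, 31.2 and 28.3 RPKM with intervals that include 1. ATF3, a stress-induced member of the same protein class, had 1.75, 2.31 and 5.58 RPKM and gave no whole reads, so that it has no interval. Among the other outputs of the pathway, PHLDA1 was the most abundant, at 98.2, 79.1 and 87.5 RPKM, with folds of 0.805 (0.760 to 0.853) and 0.891 (0.843 to 0.942). CCND1, which encodes cyclin D1, was at 78.2, 82.0 and 88.9 RPKM, with folds of 1.05 (0.949 to 1.16) and 1.14 (1.03 to 1.25). Of these 6 measured outputs, only PHLDA1 had an interval below 1, in both subclones. Intervals above 1 were found for 1 in subclone 1 (LIF) and 3 in subclone 2 (CCND1, EPHA2 and LIF). The median log2 ratios of the 6 were 0.039 and 0.28.

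Of 7 measured ligands of receptor tyrosine kinases, 2 had intervals below 1 in each subclone (EREG and TGFA), against 19.0% and 17.8% of all genes. All of the 7 but FGF2 are ligands of the epidermal growth factor (EGF) receptor. EREG, which encodes epiregulin, had 36.6, 22.3 and 23.5 RPKM in the parent and both subclones, or 0.609 (0.542 to 0.683) and 0.642 (0.573 to 0.720) of the parent. TGFA, which encodes transforming growth factor alpha, had 2.72, 1.32 and 1.24 RPKM, with folds of 0.487 (0.292 to 0.794) and 0.457 (0.272 to 0.749). AREG was at 22.1, 21.9 and 26.2 RPKM, with intervals that include 1 in both subclones. HBEGF was at 0.936, 0.911 and 2.40 RPKM, with an interval above 1 in subclone 2. The median log2 ratio of the 7 measured ligands was -0.27 in subclone 1 and -0.38 in subclone 2. With the RPKM as deposited, these were the only negative medians against the parent among the 8 lists. On division by ACTB, subclone 1 medians were also below 0 for other outputs (-0.093), core cascade (-0.031), other inhibitors (-0.12) and ERK substrates (-0.012). Division by GAPDH did so for other outputs (-0.015) and other inhibitors (-0.041). Without the filter on mean RPKM, the ligand median in subclone 1 was -0.036. Of the 9 receptors measured, 5 had an interval above 1 in each subclone (EGFR, ERBB3, MET, FGFR3 and INSR), against 20.0% and 22.9% of all genes. None had one below 1 in subclone 1, and AXL had one below 1 in subclone 2, against 19.0% and 17.8%. EGFR had 20.7, 32.9 and 35.6 RPKM. ERBB3 had 5.80, 17.6 and 35.4 RPKM, and INSR, the insulin receptor, 3.69, 7.42 and 10.5 RPKM. MET, the receptor of hepatocyte growth factor, was very abundant in each library, from 1878 to 1949 RPKM. Its level hardly differed, with folds of 1.038 (1.026 to 1.050) and 1.034 (1.022 to 1.046), and its intervals were narrow at 56436 reads in the parent.

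Kinases and adaptors of the core cascade differed in both directions, with none of the 17 at 2-fold. In subclone 1, MAP2K1, MAPK3 and SHC1 had an interval above 1, while ARAF, SOS1 and PTPN11 had one below 1. MAPK3, which encodes ERK1, had 15.0, 24.0 and 23.2 RPKM, with folds of 1.60 (1.29 to 1.998) and 1.548 (1.24 to 1.93). SHC1, the most abundant of the list, had 126, 156 and 132 RPKM. In subclone 2, MAP2K1, MAPK3, KSR1, GRB2 and SOS2 had an interval above 1, while NRAS, ARAF, SOS1 and PTPN11 had one below 1. Of the 10 other inhibitors of RAS and ERK, none had an interval that excludes 1 in subclone 1, against 20.0% above 1 and 19.0% below 1 for all genes. In subclone 2, 3 had one above 1 (PEBP1, CBL and CIC), against 22.9% of all genes. PEBP1, an inhibitor of RAF kinases, was the most abundant at 198, 208 and 218 RPKM. Of 8 substrates and partners of ERK, MKNK2, a kinase of the translation factor eIF4E, differed most, with 22.7, 43.0 and 43.6 RPKM. RPS6KA3, which encodes the kinase RSK2, had 37.0, 42.5 and 44.9 RPKM.

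**Figure D5:**
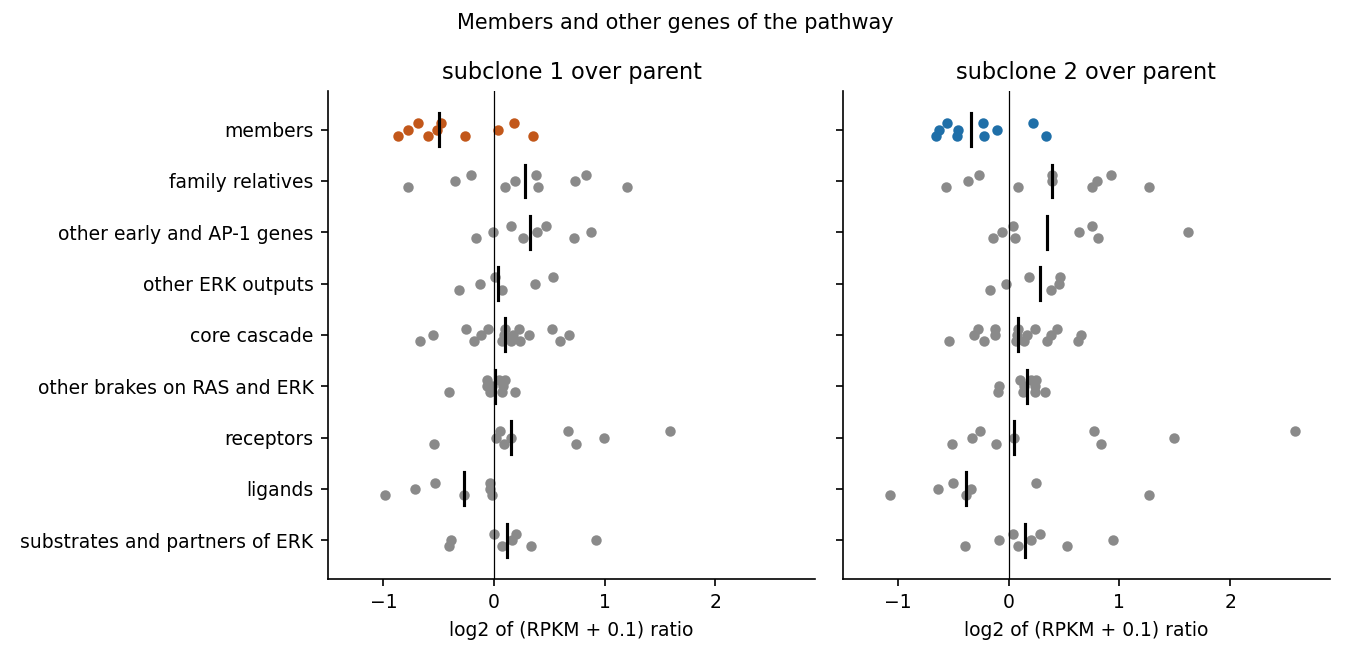
Log2 ratio of RPKM plus 0.1 over the parent in subclone 1 (left) and subclone 2 (right) for the 10 members and for the genes of 8 other lists with a mean of at least 1 RPKM. Each point is a gene and black bars are medians, which are lowest for the members in subclone 1 (-0.50) and for the ligands in subclone 2 (-0.38, with the members at -0.34).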

How the data were processed

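Libraries were made by the authors from RNA of cultured cells with an Illumina TruSeq kit, with 1 library for each of 3 lines. The authors deposited RPKM values per gene, identified by Entrez number and symbol, and only genes above 0 were listed, and genes absent from a file were taken as 0. The submitters' processing notes name the genome build hg19. The aligner, the counting tool, the annotation and the handling of strand are not given in the sources used here. Groups followed the sample titles.

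The library totals and the whole reads of each gene were derived here from the RPKM, with transcript lengths of GENCODE release 29 (GRCh38) to choose between multiples, and 97.7% of the 11370 genes with a mean of at least 1 RPKM received reads. The smallest reads with a length from 0.5 times the median to 1.5 times the longest transcript were taken, or otherwise those within 10% of a transcript. The procedure was tested on data simulated with the lengths it had derived. It recovered the totals exactly, and the exact reads of 93.3% of the genes that received reads. The test could not show whether the lengths derived for the real data were right. Ratios were log2 of RPKM plus 0.1, and percentiles refer to the 11370 genes. The members and the lists were chosen with earlier results of these data known. The text names all members and, from each other list, up to 4 genes past 2-fold in a subclone over the parent or else the most abundant gene. Results of some genes of the core cascade are not reported here. Other genes of the lists, the pairs of members and the promoter motifs were chosen after values were seen. No p-value was computed, because groups of 1 library allow no test. Alternatives were other pseudocounts, scalings, filters and a 1.5-fold threshold. The promoter sequences came from RefSeq. Computation was done in Python 3.11.15 with scipy 1.17.1, numpy 2.4.6, pandas 2.3.3 and matplotlib 3.10.9.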

Additional observations from a re-analysis of the deposited data

Results flagged for a closer look

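SPRED1 was higher than the parent in subclone 1 and lower in subclone 2, with log2 ratios of 0.034 and -0.10, and both counting intervals include no change. HBEGF, a ligand of the EGF receptor, also had log2 ratios of opposite sign, -0.035 in subclone 1 and 1.27 in subclone 2, from 10 reads in the parent. Neither difference was tested, since each line has 1 library.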

How the results depend on the processing

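Of the counts and medians of the members under each alternative, 83 held and 4 moved. These counts are of members past the fold threshold, and no member was past 2-fold as reported. Every member passed each filter, so the settings without a filter and at a mean of at least 5 RPKM could not change these values. The counts of members with an interval below or above 1 were not recomputed under the scalings, so their dependence on scaling was not tested. Division by ACTB placed 1 gene (ETV4, log2 ratio -1.0005) past 2-fold lower in subclone 1 over the parent. A 1.5-fold threshold gave 4 genes lower in subclone 1, 2 lower in subclone 2, and 1 higher in subclone 2 than in subclone 1. All 210 log2 ratios of single members under the pseudocounts of 0.01 and 1 and the 5 scalings stayed within counting error of the value as reported. The log2 ratio of ETV4 in subclone 1 ranged from -1.0005 to -0.82, that of FOSL1 in subclone 2 from -0.69 to -0.59 and that of DUSP6 in subclone 1 from 0.22 to 0.36. SPRED1 in subclone 1 ranged from -0.097 to 0.047. Of the log2 ratios of all single genes named, 535 held and 11 moved, the latter for PHLDA1, SHC1, PEBP1 and RPS6KA3 on division by ACTB or GAPDH. Some near-zero ratios of members between the subclones took the other sign within counting error. Some near-zero medians of the other lists in subclone 1 also changed sign on division by ACTB or GAPDH. Division by ACTB moved the median of all genes to -0.13 in subclone 1 over the parent and to 0.16 between the subclones, and GAPDH moved the latter to 0.15. The share of higher genes among those past 2-fold went from 72.9% to 57.8% with ACTB in subclone 1 over the parent, and between the subclones from 50.5% to 64.0% (ACTB) and 62.6% (GAPDH). Of all genes, 557 were 2-fold higher and 207 lower in subclone 1 over the parent, 606 and 246 in subclone 2, and 161 and 158 between the subclones. These counts became 347 and 117, 380 and 150, and 80 and 77 with a pseudocount of 1, then 1523 and 884, 1553 and 941, and 842 and 902 without a filter, and 233 and 71, 253 and 93, and 43 and 46 at a mean of at least 5 RPKM. The 1.5-fold threshold gave 1317 higher with 848 lower, 1444 with 830, and 540 with 467, and division by ACTB gave 328 lower in subclone 1. Taking 3 times the reads of FOSL1, at a length of 1668 bases beside a longest transcript of 1669, was chosen after seeing the data and narrowed the interval of its fold in subclone 1 to 0.536 to 0.718. No paired analysis was possible because each line has 1 library, which also leaves none to omit. Counting error is widest for SPRY2, with 60 reads in subclone 1.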
